A study of Mus musculus with 12 samples.

Results

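A list of 37 genes that answer to type I interferon was followed, gene by gene, in c-Kit+ bone marrow cells of WT and mutant mice. The list was chosen by gene name, with earlier results of these data known, and 36 of the 37 genes have a column among the 27998 gene columns of the count tables. Mx2, which encodes a dynamin-like antiviral GTPase, was not analysed here. All 36 passed the filter on low counts, with 175 UMIs for Ifit3 at the low end and 45554 UMIs for Ifi27l2a at the high end over the whole series. UMIs, the molecular barcodes of the reads, count captured RNA molecules.

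The WT mice did not carry Mx1-Cre. The 3 mutant genotypes all carried Mx1-Cre, a recombinase driven by the interferon-responsive Mx1 promoter, with floxed Ezh2 alleles (E2-KO), an inducible knock-in NRas G12D allele (G12D), or both (G12D/E2-KO). All lines were kept on a C57BL/6 background, and the labels give 5 intraperitoneal injections of pIpC at 20 mg/ml to mice of 8 to 12 weeks, WT included. The study's text puts the injections of its survival cohort at a younger age. Bone marrow was enriched magnetically for c-Kit and taken at T1, T2 and T3, which were 2 weeks, 2 months and 4 months from the pIpC course, with 1 library for each genotype and time point, 12 in all. How many animals gave each library, and their sex, is not given in the sources used here. Since WT lacks Mx1-Cre, the presence of the recombinase and the mutations cannot be told apart in a comparison with WT. Time from pIpC and the age of the mice at sampling cannot be told apart either.

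Type I interferons bind the receptor pair IFNAR1 and IFNAR2, whose kinases JAK1 and TYK2 start a signal to the nucleus. There the complex ISGF3, which holds STAT2 and IRF9, binds interferon-stimulated response elements in front of many genes. pIpC is a synthetic double-stranded RNA that triggers this response through TLR3 and the RIG-I family, and the response is known to be brief after a single exposure. In the bone marrow, type I interferon is known for driving quiescent hematopoietic stem cells into the cell cycle.

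The response element is built on repeats of GAAA. The 250 bases before the start site of each gene were searched on both strands for 2 copies of GAAA with any 2 bases between them, using the RefSeq promoter table of GRCm38.p6, which holds 28 of the 37 genes. The motif was present in 11 of these 28 promoters (39.3%), and in 936 of the 27025 genes of the whole table (3.46%). Overlapping matches were each counted. The stretches of 30 bases below are shown because they hold the motif in genes whose levels are described further on, with each whole match in capitals, written 5′ to 3′ on the strand of the gene.
Isg15 (chr4:156200871-156200900, minus strand): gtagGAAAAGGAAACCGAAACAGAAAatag
Ifit1 (chr19:34640785-34640814, plus strand): TTTCACTTTCcagtctcagTTTCAGTTTCt
Bst2 (chr8:71537580-71537609, minus strand): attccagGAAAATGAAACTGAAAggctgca
Oas1a (chr5:120907528-120907557, minus strand): tgcccttctcggGAAATGGAAACTGAAAat
Rsad2 (chr12:26456553-26456582, minus strand): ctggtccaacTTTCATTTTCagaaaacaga
Ddx60 (chr8:61928053-61928082, plus strand): tctgggagcagaagaGAAACCGAAActatc
Isg15 held 3 overlapping matches in its window, while Ifit1, Bst2 and Oas1a held 2 each. Ifit3, Oas3, Stat2, Trim30a and Phf11b were the other genes with a match. Irf7 and Isg20 held none in this window, which says only that these letters are not there.

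The libraries had 12636998 to 23646292 UMIs over 2350 to 3767 cells each and a median of 3780.5 to 6975.5 UMIs per cell. Total and median UMIs were lowest in E2-KO T3 and highest in WT T2. Kit was detected at 43.6 to 80.8 CPM (UMIs scaled to a common library total) in every library. Ezh2 lay at 20.7 to 34.6 CPM in the 6 libraries from Ezh2-floxed mice and at 81.7 to 133 CPM in the other 6. The tables of G12D T1 and G12D/E2-KO T1 shared 2896 cells, which is 51.3% of the first and 95.1% of the second. These cells had an Ezh2 level of 20.9 CPM, against 86.3 CPM in the other 2752 cells of the G12D T1 table, and they were counted only in G12D/E2-KO T1. Xist, expressed from the inactive X chromosome of female cells, was at 1296 to 1357 CPM in WT T3, E2-KO T3 and G12D T3 and at 0.61 CPM or less in the other 9 libraries. The Y-linked gene Ddx3y had the reverse pattern, at 0.61 CPM or less in those 3 libraries and at 29.4 to 59.5 CPM in the other 9. Sex and time cannot be told apart between the T3 libraries and the earlier ones in WT, E2-KO and G12D, nor sex and genotype between G12D/E2-KO T3 and the other T3 libraries.

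The interferon response genes were high in 2 libraries that share neither genotype nor time point, G12D T3 and G12D/E2-KO T1, and low in G12D/E2-KO T3. Summed over the 36 genes, the level was 701 CPM, 501 CPM and 562 CPM in WT at T1, T2 and T3, and 713 CPM, 643 CPM and 816 CPM in E2-KO. In G12D it was 728 CPM at T1, 450 CPM at T2 and 1821 CPM at T3. In G12D/E2-KO it was 2322 CPM at T1, 912 CPM at T2 and 310 CPM at T3. The sum thus went up 2.5-fold from T1 to T3 in G12D, while in G12D/E2-KO the T3 level was 0.133 times that of T1. Ifi27l2a alone made up 1038 CPM of the sum in G12D/E2-KO T1. Without the 4 most abundant genes the sum was 418 CPM, 260 CPM and 984 CPM in G12D from T1 to T3. In G12D/E2-KO it was then 892 CPM, 474 CPM and 201 CPM, so that G12D T3 lay above G12D/E2-KO T1. The difference in time course between these genotypes was not tested. Other measures differed between these libraries too. The mitochondrial share of UMIs was 3.49%, 4.62% and 5.75% in G12D/E2-KO from T1 to T3, the first and last being the lowest and the highest of the 12 libraries, and it was 4.25% in G12D T3. The summed level of 6 markers of conventional dendritic cells was 1695 CPM in G12D/E2-KO T1 and 77.1 to 293 CPM in the other libraries. These markers include Cd74, H2-Aa, H2-Ab1 and H2-Eb1, and their sum does not show the number of such cells. Late granulocyte markers went from 143691 CPM to 36701 CPM and megakaryocyte markers from 191 CPM to 905 CPM between T1 and T3 of G12D/E2-KO. Their part in the level of the list over all cells was not tested, and sums within classes are given further on.

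G12D T3 and G12D/E2-KO T1 were the 2 highest of the 12 libraries for 31 of the 36 genes, a pattern held by 2.4% of all 13143 genes tested. The 5 exceptions were Ifit2, Ifit3, Isg20, Rsad2 and Lgals3bp. G12D/E2-KO T3 was the lowest library for 27 of 36 genes, against 5.53% of all genes. In G12D/E2-KO the level fell at each step from T1 to T2 to T3 for 35 of 36 genes, against 13.3% of all genes, with Ifit2 as the exception. T3 was at least 2-fold above T1 in G12D and at least 2-fold below T1 in G12D/E2-KO for 21 genes, a pattern of 0.335% of all genes. In G12D alone, 23 genes were at least 2-fold above T1 at T3, beside 0.776% of all genes, and with the matched cells kept in both tables as deposited these were 6, beside 0.54%. These orders are descriptions of single libraries and carry no test.

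**Figure D1:**
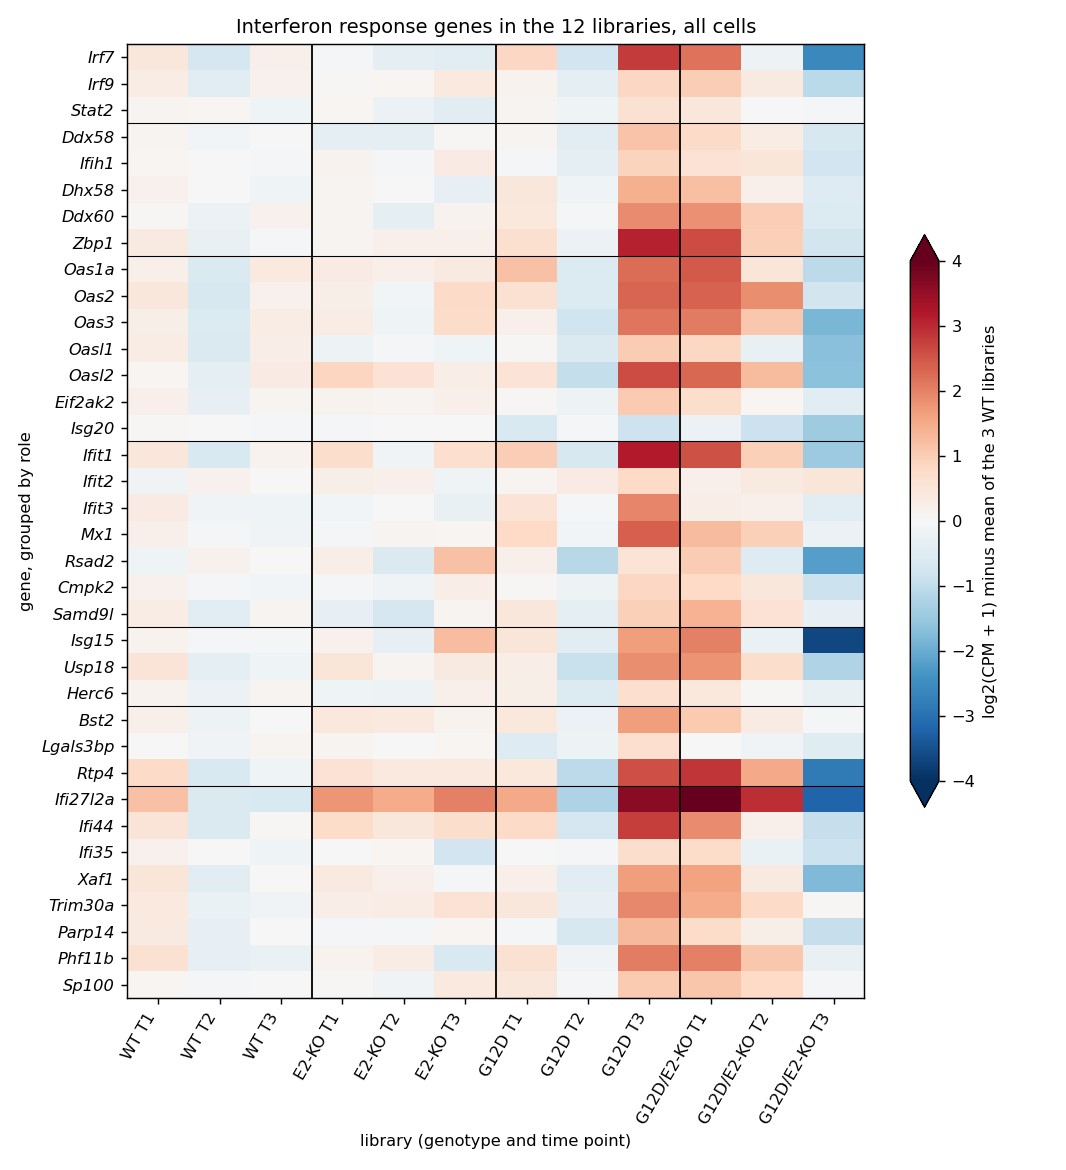
Level of each of the 36 genes (rows, grouped by role) in the 12 libraries (columns), as log2(CPM + 1) minus the mean of the 3 WT libraries. G12D T3 and G12D/E2-KO T1 are the 2 highest columns for 31 genes and G12D/E2-KO T3 is the lowest for 27, with Isg20 below WT in both high columns.

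In a fit over all libraries, no gene of the list passed the test for time after pIpC or for genotype. The test was edgeR's quasi-likelihood F-test on UMI sums per library, with genotype and time point as terms and Benjamini-Hochberg adjustment over all 13143 genes. For time point, 0 of 36 genes passed an adjusted p of 0.05, as did 0% of all genes, and 0 of the 36 had an unadjusted p under 0.05, beside 9.82% of all genes. Without G12D/E2-KO T3, 18 of the 36 had an unadjusted p under 0.05, beside 10.3% of all genes. For T3 against T2 that fit gave 23 of the 36, beside 14%. Over all libraries DESeq2 also called 0 of the 36 genes for time point, beside 0.19% of all genes. For genotype, 0 of 36 passed, beside 5.53% of all genes, and only Isg20 had an unadjusted p under 0.05, beside 28.7% of all genes. DESeq2 called 1 gene for genotype, which was again Isg20, beside 16.1% of all genes. In the 5 pairwise comparisons of genotypes that were run, in those of time points, and in the interaction of both mutations, edgeR likewise called 0 of the 36 genes. G12D was not set against E2-KO. Of all genes it called 1.65% for E2-KO against WT, 0.107% for G12D against WT and 5.71% for G12D/E2-KO against WT. It called 1.42% against G12D, 0.0913% against E2-KO, 0.0913% for the interaction and 0% between any 2 time points. At an unadjusted p under 0.05, 1 of the 36 genes passed in G12D against WT, beside 11.8% of all genes. In G12D/E2-KO 1 passed against WT, beside 26.3%, and 1 against E2-KO, beside 19.1%, and 0 passed in the other comparisons. Without G12D/E2-KO T3 the unadjusted counts were 24 of 36 against WT, beside 29.8%, and 17 of 36 against E2-KO, beside 21.4%. DESeq2 called 1, Isg20, when G12D/E2-KO was set against WT, beside 10.1% of all genes, or against E2-KO, beside 5.3%. It called 0 in the other comparisons. The median biological coefficient of variation, the relative spread between libraries that the terms leave unexplained, was 0.597 for the 36 genes and 0.169 for all genes. The fit holds genotype and time point without their interaction, so time courses that differ between genotypes count in this spread.

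The fitted changes from T1 to T2 leaned downwards without passing the test. The log2 fold change was negative for 35 of 36 genes, with a median of -0.71, while the median over all genes was 0.010. Of all genes, 52.0% had a positive value. T2 lay below T1 within all 4 genotypes for 24 of the 36 genes, a pattern of 6.15% of all genes. For Isg15, Irf7, Stat2 and Ifi44 the 4 T1 libraries did not overlap with the 4 T2 libraries, which held for 4 of 36 genes beside 1.13% of all genes. The smallest adjusted p of any of the 36 genes for T2 against T1 was 0.91 in edgeR, and 0 of them had an unadjusted p under 0.05. In a fit of the T1 and T2 libraries alone, 27 of the 36 had an unadjusted p under 0.05, beside 7.5% of all genes, and 1 passed the adjusted test, as given in the closing section. Without G12D/E2-KO T1 the median from T1 to T2 was -0.18, with 7 positive values. From T1 to T3 the median was -0.066, with 15 positive values, and it was -0.87 without G12D T3 and 0.47 without G12D/E2-KO T3. The T3 libraries of WT, E2-KO and G12D also differ in Xist from the T1 and T2 libraries. With Xist as a covariate the median from T1 to T3 was -3.15, with 1 positive value, and edgeR called 9 of the 36 genes, all lower at T3, beside 1.44% of all genes called lower. From T2 to T3 the median turned from 0.59, with 34 positive values, to -2.37, with 0 positive values. In the fit with Xist the T3 level of libraries with little Xist rests on G12D/E2-KO T3 alone.

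In the fit over all libraries the changes against WT leaned upwards in both NRas G12D genotypes. The median log2 fold change over the 36 genes was 0.83 for G12D against WT and 0.55 for G12D/E2-KO against WT, beside -0.0088 and 0.014 over all genes. Positive values were found for 34 and 31 of the 36 genes, beside 48.6% and 51.2% of all genes. The median was -0.13 for G12D without G12D T3, with 10 positive values, and -0.11 for G12D/E2-KO without G12D/E2-KO T1, with 17 positive values. Without G12D/E2-KO T3, 35 values were positive for G12D/E2-KO against WT, and 7 of the 36 genes were called, beside 10.5% of all genes. Set beside the WT library of the same time point, G12D had a median log2 ratio over the 36 genes of 0.13 at T1, -0.067 at T2 and 1.69 at T3. For G12D/E2-KO it was 1.07, 0.67 and -0.75. The WT and G12D libraries overlapped for all 36 genes, so that 0 were without overlap, beside 16.7% of all genes. For G12D/E2-KO and WT, 2 of 36 genes did not overlap, against 25.2% of all genes. These were Isg20, below all WT libraries, and Ifit2, above them at 6.73 to 8.36 CPM beside 5.05 to 6.51 CPM in WT.

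For E2-KO against WT the median over the 36 genes was 0.14, beside 0.0046 over all genes. The comparison of G12D/E2-KO with G12D, in which all mice carried Mx1-Cre, gave a median of -0.14, with 10 of 36 values positive, beside 49.7% of all genes. Against E2-KO, whose mice also carried Mx1-Cre, the median was 0.56, with 33 of 36 values positive, beside 49.7% of all genes. Against G12D, Isg15 and Bst2 turned sign when 1 library was left out, as given in the closing section. The labels do not say that libraries came from separate groups of animals, and the p-values measure the spread between these libraries only.

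Each mutant library was next set beside the WT library of its time point. A gene was counted as higher or lower where the ratio of CPM values, after adding 1 CPM to each, was at least 2-fold. At T1, G12D/E2-KO had 21 of 36 genes higher, beside 3.23% of all genes higher. At T2 it had 13 higher, beside 2.43% of all genes higher. At T3 it had 14 lower, beside 1.86% of all genes lower. With 5 CPM added in place of 1 CPM, these counts were 13 higher at T1, beside 1.04% of all genes, and 8 lower at T3, beside 0.753%. G12D had 0 higher at T1, beside 1.2% of all genes, and 0 at T2, beside 0.221%. At T3 it had 23 higher, beside 2.53%. E2-KO had 0 higher at T1, 3 at T2 and 3 at T3, beside 1.56%, 1.65% and 3.54% of all genes. Mutants of 1 time point share their WT library, and these counts compare single libraries with no replicate check.

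**Figure D2:**
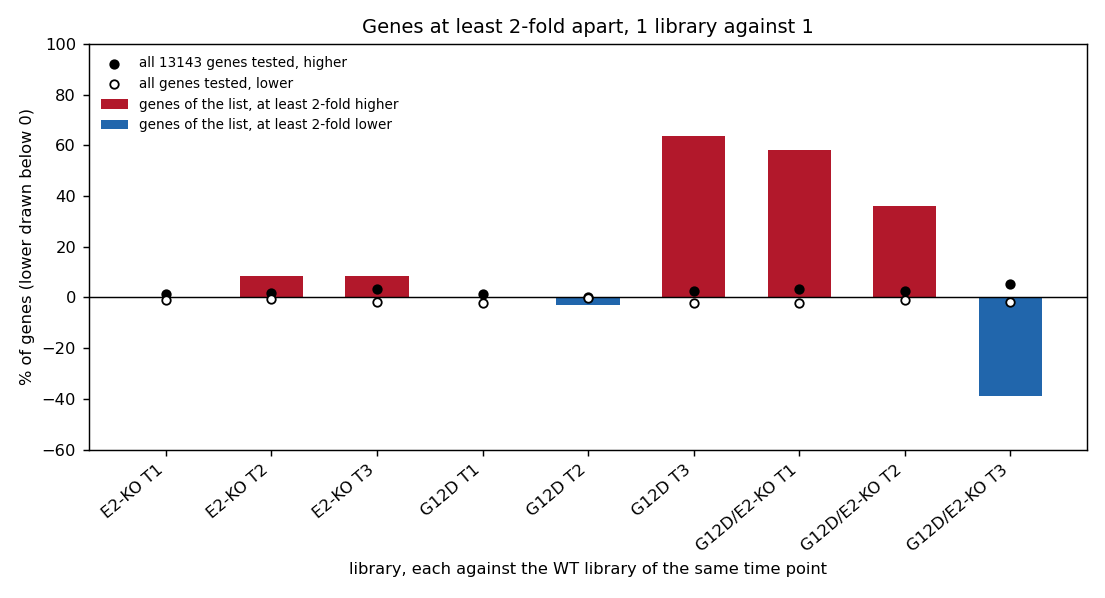
Share of the 36 genes at least 2-fold higher (red, upwards) or lower (blue, drawn below 0) in each mutant library than in the WT library of its time point, with the same shares over all 13143 genes as black and white points. G12D T3 and G12D/E2-KO T1 and T2 stand out upwards, and G12D/E2-KO T3 downwards.

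The 4 genes with the most UMIs were Ifi27l2a, Bst2, Isg20 and Isg15, and their values are given in full by the rule for named genes. Other genes named with values below were chosen after their values were seen.

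Ifi27l2a (chromosome 12, 103442167 to 103443680, GRCm38) encodes a small interferon-induced protein of the IFI27 family. Its level in WT was 77.1 CPM, 22.4 CPM and 21.6 CPM at T1, T2 and T3. E2-KO held it at 116 CPM, 96.3 CPM and 140 CPM. In G12D it was 97.1 CPM, 13.7 CPM and 418 CPM. G12D/E2-KO ran from 1038 CPM through 264 CPM to 2.72 CPM, so that this genotype held both the highest and the lowest library of the 12. The E2-KO libraries lay above all WT libraries, while the ranges of both NRas G12D genotypes enclosed or overlapped that of WT. For E2-KO against WT the fitted log2 fold change was 1.775 with a standard error of 1.705 (edgeR adjusted p = 0.65). The fitted log2 fold change of G12D/E2-KO against WT was 3.44 with a standard error of 1.80 (edgeR adjusted p = 0.28), and it was 2.10 with a standard error of 1.92 for G12D against WT (edgeR adjusted p = 0.70).

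Isg15 (chromosome 4, 156199424 to 156200818) encodes a ubiquitin-like protein that is joined to other proteins during the response. In WT it was at 42.8 CPM, 36.9 CPM and 37.5 CPM from T1 to T3. E2-KO gave 43.6 CPM, 30.8 CPM and 92.7 CPM, and G12D gave 55.3 CPM, 28.3 CPM and 125 CPM. G12D/E2-KO fell from 160 CPM at T1 and 32.6 CPM at T2 to 2.20 CPM at T3. The WT values were close together, and only the last library lay far below all others. The log2 fold change of G12D/E2-KO against WT was 0.52 with a standard error of 1.26 (edgeR adjusted p = 0.83).

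Bst2 (chromosome 8, 71534255 to 71537456) encodes tetherin, which holds budding virus at the cell surface. In G12D/E2-KO it went from 159 CPM at T1 and 95.4 CPM at T2 to 72.2 CPM at T3, the last of which lay within the WT range of 66.6 to 89.2 CPM. In E2-KO it was at 102 CPM, 99.9 CPM and 84.9 CPM. In G12D it was at 102 CPM, 65.6 CPM and 247 CPM. The log2 fold change of G12D against WT was 0.82 with a standard error of 0.47 (edgeR adjusted p = 0.52).

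Isg20 (chromosome 7, 78913424 to 78920396) encodes a 3′ to 5′ exonuclease of single-stranded RNA, and its order of libraries differed from that of most of the list. It was at 89.1 CPM, 86.8 CPM and 81.1 CPM in WT and at 80.7 CPM, 87.0 CPM and 86.7 CPM in E2-KO. G12D held 55.2 CPM, 82.4 CPM and 47.3 CPM. G12D/E2-KO held 72.0 CPM, 46.4 CPM and 31.0 CPM, all below WT. The log2 fold change of G12D/E2-KO against WT was -0.85 with a standard error of 0.29 (edgeR adjusted p = 0.10), and against E2-KO it was -0.83 with a standard error of 0.29 (edgeR adjusted p = 0.17). Without G12D/E2-KO T1 the value against WT was -1.32, and Isg20 passed the test (edgeR adjusted p = 0.012), beside 5.29% of all genes. Without G12D/E2-KO T3 it was -0.54 (edgeR adjusted p = 0.19). The summed level of 6 early erythroid markers was 2371 to 2898 CPM in WT and 1142 to 1191 CPM in G12D/E2-KO, and it was 1368 CPM, 2739 CPM and 947 CPM in G12D from T1 to T3. The part of erythroid cell number in the Isg20 level was not tested, and fewer erythroid cells cannot be told apart from less Isg20 per cell in these sums. Its level inside erythroid classes is given further on.

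**Figure D3:**
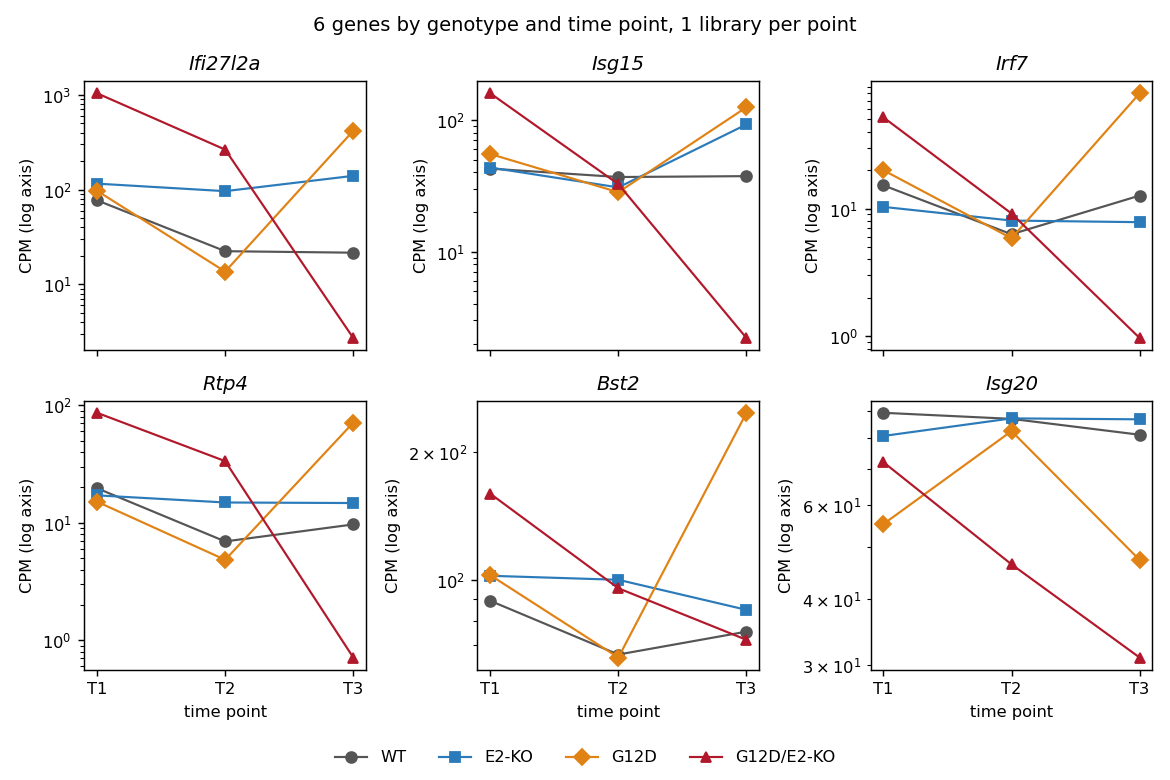
Level of 6 genes (CPM, log axis, a separate scale per panel) at T1, T2 and T3, with 1 library per point and 1 line per genotype. Ifi27l2a, Isg15, Irf7 and Rtp4 fall steeply with time in G12D/E2-KO and are high at T3 in G12D, and Isg20 is lowest in G12D/E2-KO T3.

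By role, the transcription factors were uneven. Irf7, the amplifier of the response, was at 6.30 to 15.2 CPM in WT, 79.9 CPM in G12D T3, 51.8 CPM in G12D/E2-KO T1 and 0.97 CPM in G12D/E2-KO T3. The 2 partners of ISGF3 on the list differed much less between libraries. Irf9 ranged from 8.94 to 40.8 CPM and Stat2 from 4.51 to 10.5 CPM over the 12 libraries. G12D T3 over WT T3 was 5.93-fold for Irf7, 1.57-fold for Irf9 and 1.72-fold for Stat2.

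Of the 5 RNA sensors and their regulators, 3 were at least 2-fold higher in G12D/E2-KO T1 and 4 in G12D T3 than in WT of the same time. Of all genes, 3.23% and 2.53% were higher. Zbp1, a sensor of Z-form nucleic acid, stood highest, at 8.71-fold in G12D T3 and 4.76-fold in G12D/E2-KO T1. Ifih1, which encodes MDA5, the main cytosolic receptor of long pIpC, was at 1.93-fold and 1.41-fold. The other 3, Ddx58, Dhx58 and Ddx60, encode RIG-I and related helicases and ranged from 3.17 to 13.1 CPM, 2.72 to 13.3 CPM and 1.75 to 13.8 CPM. At T3 in G12D/E2-KO 0 of the 5 were 2-fold below WT, beside 1.86% of all genes.

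Among the 7 enzymes that double-stranded RNA activates or that degrade RNA, 4 were at least 2-fold higher in both high libraries. Of all genes, 2.53% were higher in G12D T3 and 3.23% in G12D/E2-KO T1, and the share higher in both was not counted. The 4 enzymes were the oligoadenylate synthetases Oas1a, Oas2 and Oas3 and the related Oasl2. Oasl2 reached 4.92-fold in G12D T3, and Oas1a reached 4.77-fold in G12D/E2-KO T1. In G12D/E2-KO T3, 5 of the 7 were at least 2-fold below WT, beside 1.86% of all genes, with Oas3 lowest at 0.23-fold. Eif2ak2, which encodes the kinase PKR, had a range of 13.9 to 40.9 CPM. Oas1a has close paralogues, so reads shared between copies may be missing from its count, and the same holds for Ifit3, Trim30a and Phf11b.

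The IFIT proteins and other blocks on translation or replication were uneven, with 3 of the 7 measured at least 2-fold higher in G12D T3 and 4 in G12D/E2-KO T1. Of all genes, 2.53% and 3.23% were higher than in WT of the same time. Ifit1, which binds viral RNA caps, was at 44.4 CPM in G12D T3 and 28.1 CPM in G12D/E2-KO T1, beside 2.28 to 5.82 CPM in WT. Ifit2, whose gene lies in the same cluster as Ifit1 on chromosome 19, ranged from 4.91 to 10.6 CPM and was at 8.36 CPM in G12D/E2-KO T3. Ifit3 had 175 UMIs in all and Mx1 246 UMIs, and both were highest in G12D T3, at 4.57 CPM and 5.88 CPM. Cmpk2, a nucleotide kinase, ranged from 12.96 to 43.99 CPM and Samd9l, a restrictor of translation, from 14.3 to 62.8 CPM. Rsad2, the antiviral enzyme viperin, was highest in E2-KO T3 at 50.6 CPM, above G12D/E2-KO T1 at 45.9 CPM and G12D T3 at 32.7 CPM. E2-KO T3 also had the highest sum of haemoglobin and other late erythroid markers, 93167 CPM, beside 8963 to 42514 CPM elsewhere.

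In the ISG15 system, Usp18, which removes ISG15 from proteins, was 4.03-fold higher in G12D T3 than in WT T3, while Herc6, the ligase that attaches it, was 1.48-fold higher. Of the membrane, secreted and chaperone genes, Rtp4, a Golgi chaperone of receptors, ran from 86.3 CPM in G12D/E2-KO T1 to 0.71 CPM in G12D/E2-KO T3. Lgals3bp, which encodes a secreted glycoprotein, had a narrow range of 14.0 to 33.2 CPM. The 8 remaining genes were Ifi27l2a, Ifi44, Ifi35, Xaf1, Trim30a, Parp14, Phf11b and Sp100. Of these 8, 7 were at least 2-fold higher in G12D T3 than in WT T3, beside 2.53% of all genes. In G12D/E2-KO T1, 6 were at least 2-fold higher than in WT T1, beside 3.23%. From T1 to T3 in G12D/E2-KO, all 8 were at least 2-fold lower, as were 31 of the 36 genes and 3.83% of all genes.

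The interferon genes themselves were hardly detected at this depth. Of the 10 ligand genes with a column, 1 had any UMI, Ifng, the type II interferon, with 2 UMIs in all. The receptor genes Ifnar1 and Ifnar2 were at 9.27 to 13.03 CPM and 17.0 to 34.1 CPM over the 12 libraries. Of the 14 receptor and signal relay genes, 1 passed the genotype test, beside 5.53% of all genes. It was Ifngr2, a chain of the interferon gamma receptor (edgeR adjusted p = 0.043). Its level was 22.4 to 27.5 CPM in WT and 20.9 to 24.2 CPM in E2-KO. It was 30.6 to 42.9 CPM in G12D and 29.2 to 42.0 CPM in G12D/E2-KO. Both NRas G12D genotypes thus lay above the other 2, and the share of all genes with this order was not counted. Irf5, a transcription factor downstream of Toll-like receptors, passed in G12D/E2-KO against WT, with a log2 fold change of 1.18 and a standard error of 0.29 (edgeR adjusted p = 0.044). Of the 12 tested of 13 sensing and adaptor genes, Tlr4, the receptor of bacterial lipopolysaccharide, passed in the same comparison. Its value was 0.95 with a standard error of 0.24 (edgeR adjusted p = 0.045), beside 5.71% of all genes called there. Calls this few in lists of this size do not set the lists apart from all genes. Of 9 genes that brake the pathway and of 34 other interferon-stimulated genes, edgeR called 0 for genotype or time point. At an unadjusted p under 0.05 there were 3 of 9 and 10 of 34 genes for genotype, beside 28.7% of all genes, and 1 and 0 for time point, beside 9.82%.

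Of the 34 other interferon-stimulated genes, 21 were at least 2-fold higher in G12D T3 than in WT T3, beside 2.53% of all genes, and 10 were higher in G12D/E2-KO T1 than in WT T1, beside 3.23%. In G12D/E2-KO T3, 3 of the 34 were at least 2-fold lower than in WT T3, beside 1.86% of all genes, and the median log2 ratio was 0.038, against -0.75 over the 36 genes. Ifitm3, 1 of those 3 genes, which blocks entry of enveloped viruses, was at 1216 CPM in G12D T3 and 1072 CPM in G12D/E2-KO T1, beside 152 CPM in G12D/E2-KO T3 and 248 to 336 CPM in WT. Of the 14 receptor and relay genes, 3 were at least 2-fold higher in G12D T3, beside 2.53% of all genes, and 1 in G12D/E2-KO T1, beside 3.23%.

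To separate the level within a cell type from the mix of cell types, cells were gated by marker genes into 13 classes, of which 9 had at least 20 cells in every library. A gate is a range of a marker score and not a type, and 2.68% to 20.3% of the cells of these 9 classes lay near the gate. From 24.1% to 35.5% of the cells of a library fell in no gate. In WT the macrophage gate also held late granulocyte markers at 252357 CPM and haemoglobin and other late erythroid markers at 103155 CPM, so it is a mixture and its values are given as such. Late granulocyte markers were also present at 5638 to 26007 CPM in the 7 other classes apart from late granulocytes, and the part of free RNA in any class level was not tested.

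The genes had different home classes in WT. Among the 9 classes, 14 of the 36 genes had their highest mean in the gate of stem cells and multipotent progenitors (HSC/MPP) and 11 in late erythroid cells. Only 3 of these 14 and 6 of these 11 did not overlap with their next class over the WT libraries. How often genes at large have these home classes or clear their next class was not counted. The counts thus do not set the list apart from other genes. Some ranks rest on few UMIs in WT, such as 41 for Phf11b and 48 for Oas2. With the smaller gates of at least 20 cells in every WT library counted too, the numbers were 8 genes for HSC/MPP, 11 for late erythroid cells, 6 for plasmacytoid dendritic cells (pDC) and 4 for T and NK cells. Those last 2 gates also held late granulocyte markers, at 52674 CPM in pDC and 116372 CPM in T and NK cells, beside 438 CPM and 1425 CPM of their own markers, so they are mixtures too. Isg15 was at 570 ± 31.0 CPM (SD, n = 3) in late erythroid cells, Isg20 at 508 ± 25.3 CPM and Rsad2 at 409 ± 52.6 CPM. The HSC/MPP genes were less abundant, with Rtp4 at 58.9 ± 15.9 CPM, Oasl2 at 30.8 ± 5.44 CPM and Parp14 at 25.1 ± 7.44 CPM there. Parp14 was at 30.4 ± 16.3 CPM in pDC. Of the 9 classes Bst2 was highest in promonocytes (ProMo), at 165 ± 10.97 CPM, next to HSC/MPP at 148 ± 8.65 CPM, and in pDC it was at 299 ± 184 CPM. Samd9l was highest in late granulocytes (late GN), at 61.4 ± 12.4 CPM, and overlapped with the macrophage gate at 48.0 ± 30.1 CPM. In late GN Ifi27l2a was at 36.2 ± 20.0 CPM. The SD is over the 3 time points.

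Within classes the 2 high libraries stood out again. The summed level of the 36 genes was above every WT library in both G12D T3 and G12D/E2-KO T1 in 9 of 9 classes. In G12D/E2-KO T3 it was below every WT library in 8 of 9 classes, the exception being late GN, where it was 306 CPM beside 264 to 374 CPM in WT. This held in some classes for other libraries too. G12D T2 was below WT in HSC/MPP, GMP/early GN, late GN, megakaryocytes, early erythroid cells and the macrophage gate. The E2-KO libraries were below WT in the macrophage gate and in late erythroid cells. G12D/E2-KO T2 was also below WT in late erythroid cells, at 1224 CPM beside 1750 to 2152 CPM. G12D T1 was below WT in the macrophage gate, at 450 CPM. E2-KO T3 was below WT in basophils and mast cells, at 415 CPM beside 443 to 642 CPM. In the macrophage gate G12D T2 was at 274 CPM and G12D/E2-KO T3 at 304 CPM, beside 836 to 861 CPM in WT. In HSC/MPP the sum was 726 to 1005 CPM in WT, 2348 CPM in G12D T3, 1859 CPM in G12D/E2-KO T1 and 365 CPM in G12D/E2-KO T3. In early erythroid cells it was 494 to 661 CPM in WT, 1683 CPM in G12D T3, 1301 CPM in G12D/E2-KO T1 and 312 CPM in G12D/E2-KO T3. Looser and stricter gates gave 9 of 9 classes again for both high libraries, while for G12D/E2-KO T3 below every WT library they gave 8 and 7 of 9.

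**Figure D4:**
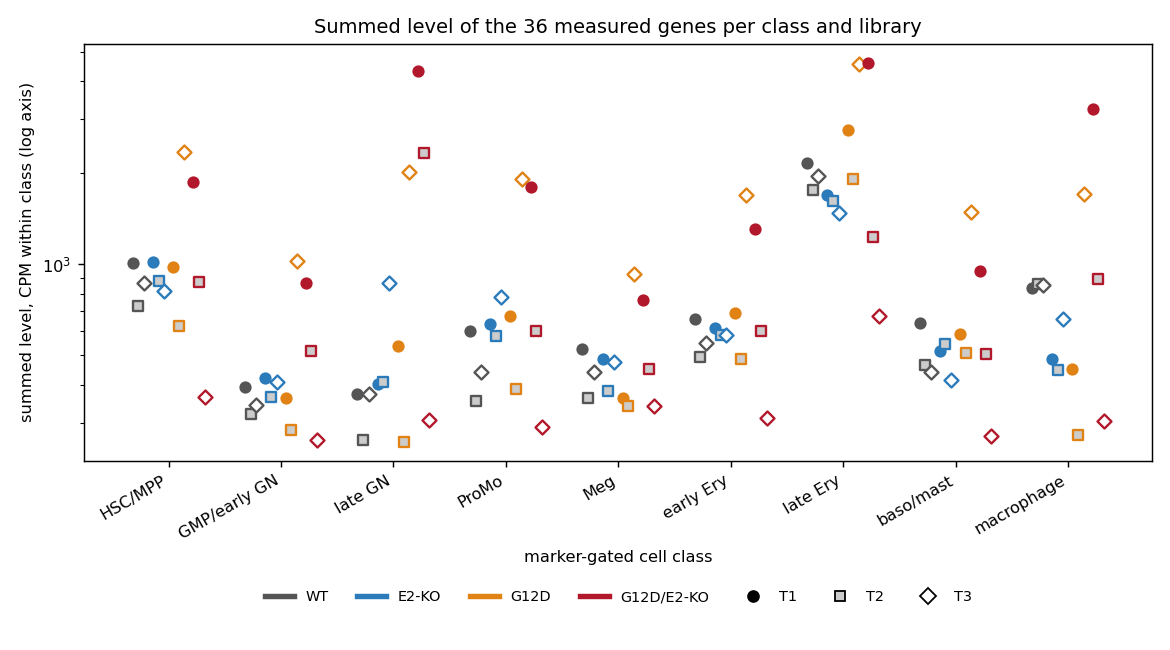
Summed level of the 36 genes within each of 9 marker-gated classes (CPM of the class, log axis), with 1 point per library, coloured by genotype and shaped by time point. The open orange diamond (G12D T3) and the filled red circle (G12D/E2-KO T1) lie above the 3 WT points in all 9 classes, and late GN of G12D/E2-KO T1 is at 4333 CPM.

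Late GN showed the widest gap. The sum there was 2007 CPM in G12D T3 and 4333 CPM in G12D/E2-KO T1, and still 2330 CPM in G12D/E2-KO T2. E2-KO T3 was at 863 CPM in this class, beside 404 CPM and 409 CPM at the earlier times. Ifi27l2a alone was at 2895 CPM in G12D/E2-KO T1, 1253 CPM in T2 and 16.9 CPM in T3, beside 13.1 to 48.6 CPM in WT. With 10 CPM added to each value and at least 10 UMIs over both libraries required, 18 of 32 genes were at least 2-fold higher in G12D/E2-KO T1 than in WT T1, beside 1.05% of all genes. At T2 this was 20 of 30 genes, beside 1.11% of all genes. In G12D T3 it was 18 of 33 genes, beside 0.472%.

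Erythroid cells carried other genes of the list. In late erythroid cells Isg15 was at 536 to 596 CPM in WT, 1648 CPM in G12D T3, 1931 CPM in G12D/E2-KO T1 and 29.95 CPM in G12D/E2-KO T3. Of the genes with enough UMIs there, 11 of 16 were at least 2-fold lower in G12D/E2-KO T3 than in WT T3, beside 4.4% of all genes. Isg20 moved less there, at 730 CPM, 357 CPM and 436 CPM in G12D/E2-KO from T1 to T3 beside 483 to 534 CPM in WT. In early erythroid cells Isg20 was at 151 CPM and 152 CPM in G12D/E2-KO T1 and T2, beside 132 to 168 CPM in WT, and at 88.8 CPM in T3. Over all cells its T1 and T2 levels were below WT, while in early erythroid cells they lay within the WT range and in late erythroid cells 1 was above and 1 below it. Rsad2 in late erythroid cells of E2-KO T3 was at 287 CPM, under the WT range of 375 to 469 CPM, although that library had the highest level over all cells.

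HSC/MPP of G12D T3 had 15 of 34 genes at least 2-fold above WT T3, beside 0.767% of all genes, and in G12D/E2-KO T1 4 of 32 were above WT T1, beside 0.853%. From T1 to T3 in G12D/E2-KO, 19 of 32 genes in HSC/MPP were at least 2-fold lower, beside 1.66% of all genes. Ifi27l2a in this class went from 505 CPM to 3.98 CPM, and Rtp4 went from 143 CPM to 3.98 CPM.

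The same edgeR test within the 9 classes called 0 gene and class pairs for time point and 0 for genotype. DESeq2 was not run within classes. At an unadjusted p under 0.05 there were 0 to 2 genes per class for time point, beside 4.12% to 11.5% of all genes, and 0 to 3 for genotype, beside 7.12% to 18.3%. For genotype, the share of all genes called was highest in late GN (3.93%), early erythroid cells (3.67%), ProMo (2.67%) and GMP/early GN (2.12%). It was 1.54% in late erythroid cells, 0.833% in the macrophage gate, 0.729% in HSC/MPP, 0.585% in basophils and mast cells and 0.475% in megakaryocytes. For time point it was 0.166% in HSC/MPP, 0.114% in basophils and mast cells, 0.107% in late GN, 0.078% in ProMo and 0.0712% in late erythroid cells. It was 0.0616% in early erythroid cells, 0.0377% in GMP/early GN, 0.0287% in the macrophage gate and 0.0226% in megakaryocytes. Without G12D/E2-KO T3 the genotype test called 39 pairs, beside 3.33% of all gene and class pairs, and the time test 16, beside 0.357%. Of the 39 pairs, 25 were in late GN, where 32 genes of the list were tested and 6.45% of all genes were called.

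Finally, cells were thinned to 1400 UMIs each to describe how the UMIs of the list were spread over cells. No share of free RNA was estimated, so a cell with such UMIs is not shown to express the genes. The share of cells with at least 3 UMIs of the list was 12.1% in WT T1 (95% Wilson interval 10.8% to 13.5%), 7.45% in T2 (6.55% to 8.48%) and 7.20% in T3 (6.23% to 8.31%). It was 39.0% in G12D T3 (37.2% to 41.0%) and 48.2% in G12D/E2-KO T1 (46.4% to 50.0%). In G12D/E2-KO it was 18.3% at T2 (17.1% to 19.6%) and 1.57% at T3 (1.16% to 2.12%). Before thinning, the shares ran from 26.2% in G12D/E2-KO T3 to 94.1% in G12D/E2-KO T1. The 1% of cells with the most UMIs of the list held 8.46% of them in G12D T3 and 7.37% in G12D/E2-KO T1, less than the 12.1% to 13.1% of the WT libraries. It was also below WT in G12D/E2-KO T2 and T3, at 11.3% and 8.68%, and in E2-KO, at 9.92% to 11.4%, and above WT in G12D T1 and T2, at 14.8% and 15.0%. Intervals cover counting error only.

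**Figure D5:**
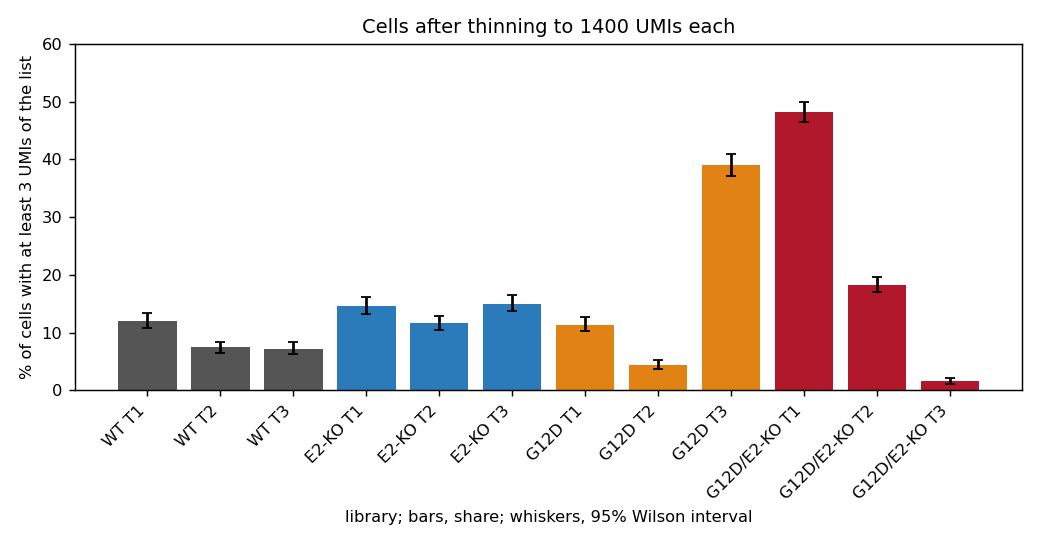
Share of cells with at least 3 UMIs of the list after thinning every cell to 1400 UMIs, in each of the 12 libraries, with 95% Wilson intervals. G12D T3 (39.0%) and G12D/E2-KO T1 (48.2%) lie above all others, and G12D/E2-KO T3 (1.57%) is the lowest.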

How the data were processed

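Single-cell 3′ RNA sequencing (10x Genomics) of c-Kit+ bone marrow cells was analysed from 12 libraries. The values are counts: the authors aligned each sample separately to mm10 with Cell Ranger, removed cells with over 10% mitochondrial UMIs and doublets called by Scrublet, and deposited UMI counts by gene and cell. No further cell filter or doublet caller was applied. The genes, their roles and the pathway lists were chosen with earlier results of these data known. Cells matched between tables (cosine above 0.9 over 8000 genes, after leaving out the 300 most abundant) were counted once, which left 32701 of 35597 cells. UMIs were summed per library, or per library and class (marker score of at least 1 and a margin of 0.5, in WT standard deviations). Sums were fitted with edgeR 4.0.16 in R 4.3.3 (TMM, filterByExpr, robust quasi-likelihood, genotype plus time point, 6 residual degrees of freedom, adjusted p under 0.05) after a test on simulated data. DESeq2 1.42.0 and the alternatives of the closing section were run beside it. Values per library were given for genes past the time or genotype test, of which there were 0, and for the 4 genes with the most UMIs. Folds between single libraries and the orders of libraries were added after the levels were seen. Gene positions are from GENCODE M21 (GRCm38), and promoter sequences are from RefSeq (GRCm38.p6).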

Additional observations from a re-analysis of the deposited data

Results flagged for a closer look

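The time courses of G12D and G12D/E2-KO ran in opposite directions from T1 to T3, although both fell from T1 to T2. From T1 to T3, 21 of the 36 genes were at least 2-fold higher in G12D and at least 2-fold lower in G12D/E2-KO. The summed level at T3 was 2.5 times that at T1 in G12D and 0.133 times in G12D/E2-KO. Without the 4 most abundant genes the sum went from 418 CPM to 984 CPM in G12D and from 892 CPM to 201 CPM in G12D/E2-KO. The difference between the genotypes was not tested. G12D T3 and G12D T1 also differ in Xist, while the G12D/E2-KO libraries do not. WT and E2-KO differ in Xist between the same time points, and their sums were 701 CPM and 562 CPM, and 713 CPM and 816 CPM. The part of sex in these sums was not tested. In WT, E2-KO and G12D it cannot be told apart from time.

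The 2896 cells that the G12D T1 table holds in common with G12D/E2-KO T1 entered no G12D value. As read from the G12D T1 table their summed level was 2290 CPM, above the 501 to 701 CPM of the WT libraries and the 728 CPM of the other G12D T1 cells. With these cells left in, G12D T1 would stand at 1546 CPM. The 148 cells of G12D/E2-KO T1 that match no cell of G12D T1 had a sum of 3406 CPM over 598037 UMIs.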

How the results depend on the processing

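Of the counts of called genes over all cells, which were 0 in every comparison, those for E2-KO against WT, G12D against WT and the interaction stayed at 0 in every alternative run. With Xist as a covariate, 3 genes were called for time point, 9 for T3 against T1, 6 for genotype, 8 for G12D/E2-KO against WT, 1 against G12D and 4 against E2-KO. Of all genes that fit called 0.352%, 2.07%, 11.9%, 10.3%, 1.84% and 3.74% in the same order. Of the genes of the list the 9 for T3 against T1 were all lower and those for G12D/E2-KO all higher, and 32 of the 36 genes had an unadjusted p under 0.05 for T3 against T1, beside 19.7% of all genes. The median for T3 against T1 went from -0.066 to -3.15 and that for T3 against T2 from 0.59 to -2.37. The T3 level in the fit with Xist rests on G12D/E2-KO T3 alone. Its genotype comparisons thus use much the same libraries as the fit without G12D/E2-KO T3, and they are not separate checks. Leaving out 1 library at a time gave 0 to 6 genes for genotype, 0 to 7 for G12D/E2-KO against WT, 0 to 1 against G12D, 0 to 4 against E2-KO, 0 to 1 for T3 against T2 and 0 in all other comparisons over all cells. The highest values were those without G12D/E2-KO T3, where 11.8% of all genes were called for genotype, 10.5% for G12D/E2-KO against WT, 1.82% against G12D, 3.57% against E2-KO and 0.0917% for T3 against T2, while without G12D/E2-KO T1 Isg20 alone was called. DESeq2, the tables without the matched cells and the fit without both high libraries each called 1 gene, Isg20, for genotype (beside 16.1%, 4.99% and 4.4% of all genes) and for G12D/E2-KO against WT (10.1%, 5.68% and 5.86%). DESeq2 and the fit without both high libraries also called 1 against E2-KO, beside 5.3% and 0.493% of all genes. Without the matched cells G12D/E2-KO T1 keeps 598037 of its 22279655 UMIs, and the fit without both high libraries drops it. Both settings thus come close to the fit without G12D/E2-KO T1 and are not separate checks. The fit without both high libraries was added after the data were seen. With only the libraries of T1 and T2, 1 gene was called for T2 against T1, Ifit1, beside 0.0233% of all genes, and 27 of the 36 had an unadjusted p under 0.05, beside 7.5%. Within classes, leaving out 1 library gave 0 to 16 pairs for time point, 0 to 27 over its contrasts, 0 to 39 for genotype and 0 to 84 over its contrasts, again highest without G12D/E2-KO T3, where 0.357%, 0.211%, 3.33% and 1.02% of all pairs were called. Without G12D T3 there were 6 pairs for genotype, beside 1.62% of all pairs, and without G12D/E2-KO T1 6 as well, beside 2.49%. The looser and stricter gates called 0.

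Single genes turned sign in some of the alternative runs, with or without the high libraries. Ifi27l2a in G12D against WT was at -0.19 without G12D T3 and -0.0081 without both high libraries, with 3.06 as the highest value when 1 library was left out. Bst2 in G12D/E2-KO against G12D was at 0.15 with the Xist covariate, 0.40 without G12D T3, 0.15 without G12D/E2-KO T3 and 0.054 without both high libraries, with a lowest value of -0.76 without G12D/E2-KO T1. Isg20 in T2 against T1 was at 0.12 without the matched cells, 0.28 without G12D/E2-KO T1, 0.018 without G12D/E2-KO T2 and 0.28 without both high libraries, with a lowest value of -0.23 without G12D T2. Isg15 in G12D against WT was at -0.11 without G12D T3 and 1.17 without WT T2. In G12D/E2-KO against WT it was at -0.48 with only these 2 genotypes, -1.11 without G12D/E2-KO T1, 1.33 without G12D/E2-KO T3 and -1.17 without both high libraries. In G12D/E2-KO against G12D it was at 0.19 without the matched cells, 0.81 with the Xist covariate, 0.42 without G12D T3, 0.81 without G12D/E2-KO T3 and -1.88 without G12D/E2-KO T1. These are log2 fold changes, and the cause of the changes was not tested.

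With 5 CPM added in place of 1 CPM, 13 genes were at least 2-fold higher in G12D/E2-KO T1 than in WT T1 and 8 at least 2-fold lower in G12D/E2-KO T3 than in WT T3. With the tables as deposited, 6 genes were at least 2-fold higher in G12D T3 than in G12D T1. The replicate number is the time point. Libraries of 1 time point did not deviate together in every pair, with correlations of -0.29 to 0.54 over 5538 genes and 11 of 18 pairs above 0.1. Without the replicate block, 0 of the 36 genes were called for genotype, and the calls over all genes went from 727 to 642. Genes with few UMIs, such as Ifit3 and Mx1, carry the widest counting error.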
